A study of Mus musculus with 10 samples.

Results

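The genes described here encode 8 small leucine-rich proteoglycans of the extracellular matrix, decorin (Dcn), biglycan (Bgn), asporin (Aspn), lumican (Lum), fibromodulin (Fmod), PRELP (Prelp), osteomodulin (Omd) and osteoglycin (Ogn), together with the large proteoglycan versican (Vcan). They were found by symbol among the probe sets whose platform annotation gives a single gene, and where a gene has several probe sets the one brightest on average stands for it, with the rest as a check. All 9 were measured, by 21 probe sets, among 12393 genes and 22626 probe sets in all. RNA came from the whole lung of male C57BL/6 mice, 6 to 8 weeks old, of which 5 were kept in normoxia and 5 in intermittent hypoxia, in which low and normal oxygen alternate. Each lung was hybridised to its own Affymetrix Mouse Genome 430A 2.0 array, and the design text gives 5 animals to each group. Neither the oxygen levels nor the length of exposure is given in the sources used here. The levels are log2 values, so a difference of 1 is a 2-fold change, and levels of different probe sets cannot be set against each other as amounts of RNA.

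Small leucine-rich proteoglycans are secreted core proteins built of leucine-rich repeats that bend into a solenoid. Most bind collagen fibrils and set their diameter and spacing, and several also hold growth factors of the TGF-beta family. Versican belongs to another family, the hyaluronan-binding lecticans, and forms hydrated aggregates between cells. In the lung these proteins are made mainly by fibroblasts and other mesenchymal cells of the alveolar wall, the airways and the vessels.

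Transcripts of asporin and osteoglycin rose after intermittent hypoxia, by 1.46-fold and 1.30-fold, and none of the 9 genes was called lower. The osteoglycin call was lost under several other settings, quantile normalization among them. With SAM, another test described below, 0 of the 9 passed at their brightest probe sets, beside 5.16% of all probe sets. PRELP rose at the dimmer of its 2 probe sets and did not pass at the brighter one, where it differed by 0.46 on the log2 scale. The remaining 6 genes did not pass the test, with differences from -0.22 for Omd to 0.35 for Bgn. The count of 2 in 9 stands beside 8.93% of the 12393 genes that were higher and 12.5% that changed in either direction at a limma adjusted p below 0.05, with 3.6% lower. Over all probe sets 11.9% changed, 8.5% higher and 3.43% lower. At an adjusted p below 0.10, 4 of the genes were higher and 1 lower, where 14.5% of all genes were higher and 22.8% changed. Of the 9 differences 6 were above 0, beside 53.2% of all genes, and their median was 0.22, against 0.01 over all genes. Over the 11313 probe sets left when those dimmer than the median were dropped, the median difference was 0.10 and 21.5% passed. Dcn, Bgn, Prelp and Ogn, all with positive differences, lay above 96.4% to 98.7% of the probe sets. Aspn (45.9%) and Lum (60.5%), also positive, and Fmod (58.2%), Vcan (28.2%) and Omd (17.1%), all negative, were dimmer. The part of brightness in the median of 0.22 was not tested.

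Several of these genes are neighbours in the mouse genome. In the RefSeq annotation Aspn, Omd and Ogn follow each other on chromosome 13 with no other protein-coding gene between them, Dcn lies next to Lum on chromosome 10, and Prelp lies next to Fmod on chromosome 1. The 3 genes of chromosome 13 are shown by the 250 bases before their annotated starts, because Aspn and Ogn rose while Omd, between them, had a negative difference. The sequences are RefSeq's, build GRCm38.p6, all on the plus strand, at chr13:49544193-49544442 for Aspn, chr13:49582212-49582461 for Omd and chr13:49607765-49608014 for Ogn. Capitals mark matches, on either strand, to TATAAA (the TATA box), ACGTG (the core of the hypoxia response element), CATTCC (the site of TEAD factors) and TGACTCA (the AP-1 site).
Aspn: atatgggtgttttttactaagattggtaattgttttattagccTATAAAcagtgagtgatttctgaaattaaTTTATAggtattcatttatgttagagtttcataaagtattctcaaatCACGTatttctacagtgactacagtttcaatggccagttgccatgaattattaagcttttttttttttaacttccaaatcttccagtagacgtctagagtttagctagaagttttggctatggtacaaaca
Omd: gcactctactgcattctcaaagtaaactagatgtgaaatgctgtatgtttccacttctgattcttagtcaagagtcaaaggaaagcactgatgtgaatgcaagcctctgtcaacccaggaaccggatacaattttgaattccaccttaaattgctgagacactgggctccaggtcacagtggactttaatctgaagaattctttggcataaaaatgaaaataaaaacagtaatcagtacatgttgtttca
Ogn: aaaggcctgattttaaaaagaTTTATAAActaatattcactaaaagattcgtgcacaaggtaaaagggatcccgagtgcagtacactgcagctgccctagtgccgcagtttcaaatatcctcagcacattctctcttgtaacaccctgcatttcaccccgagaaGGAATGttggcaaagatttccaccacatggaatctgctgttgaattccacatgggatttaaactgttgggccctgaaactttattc

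The Aspn window held TATAAA once on each strand, 207 and 178 bases before the start, and ACGTG once on the opposite strand, 131 bases before it. The Ogn window held TATAAA on both strands in overlapping positions, 227 and 229 bases before the start, and CATTCC once on the opposite strand, 86 bases before it. The Omd window held none of the 4 motifs. Of the 9 genes 7 had an entry in the RefSeq promoter table, and the windows of Bgn, Fmod, Prelp and Vcan held none of the 4 motifs either. The Bgn window does hold GCGTG, the form that was not searched. Over 32851 windows of the same length TATAAA was present in 12.4%, ACGTG in 16.6%, CATTCC in 12.6% and TGACTCA in 4.46%. A match describes letters and is no evidence of binding.

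The first class of the family holds asporin, decorin and biglycan. Asporin, an aspartate-rich member that binds collagen and TGF-beta, had log2 levels of 7.18, 7.18, 6.92, 7.33 and 7.40 on normoxia arrays 1 to 5. On hypoxia arrays 1 to 5 the levels of Aspn were 7.94, 7.47, 8.06, 7.51 and 7.75. Every hypoxia array lay above every normoxia array, which was true of 5.76% of all genes and in either direction of 8.61%. With the brightest probe set of each of the 9 genes, Aspn was the single one without overlap. The mean rose from 7.20 ± 0.18 to 7.75 ± 0.26 (SD, n = 5), a difference of 0.54 (SE 0.12, 95% interval 0.28 to 0.81, limma adjusted p = 0.0170). An exact two-sided permutation test over the arrays gave p = 0.00794, the smallest value that 5 against 5 arrays allow.

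The other probe set of Aspn, 1448421_s_at, gave a difference of 0.39 (SE 0.09, limma adjusted p = 0.0220). Its levels were 6.28 to 6.69 in normoxia and 6.60 to 7.06 in intermittent hypoxia, so that its groups overlapped between hypoxia array 4 and normoxia array 2. At the main probe set the call stood without each single array (adjusted p from 0.0104 to 0.0473). At the other probe set it was lost without normoxia array 3 (0.0514) or 4 (0.0596) or hypoxia array 2 (0.0507) or 3 (0.0548). SAM is the method the design text names, and was run here with Benjamini-Hochberg adjustment in place of its own q-values. It gave the main probe set an adjusted p of 0.0515 and the other probe set 0.0550.

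Decorin, which coats collagen fibrils and binds TGF-beta, had levels of 12.01, 11.98, 11.78, 11.92 and 12.48 on normoxia arrays 1 to 5. On hypoxia arrays 1 to 5 the levels of Dcn were 12.27, 12.32, 12.24, 12.19 and 12.28. The hypoxia arrays thus lay within a narrow band above normoxia arrays 1 to 4, while normoxia array 5 stood above all of them. The difference was 0.22 (SE 0.11, 95% interval -0.01 to 0.45, limma adjusted p = 0.168), which did not pass. Without normoxia array 5 the difference was 0.33 with an adjusted p of 0.00780. That omission also raised the share of all probe sets that passed from 11.9% to 21.2%, the largest of any single omission. Quantile normalization gave 0.06 (adjusted p = 0.677). Dcn is measured by 1 probe set.

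Biglycan, the nearest relative of decorin and a ligand of Toll-like receptors when released from the matrix, was measured by 3 probe sets. At the brightest the normoxia levels were 12.66, 12.32, 12.13, 12.16 and 12.49 on arrays 1 to 5. The hypoxia levels of Bgn were 12.66, 13.06, 12.75, 12.61 and 12.44. Hypoxia arrays 2 and 3 lay above every normoxia array, and hypoxia arrays 4 and 5 within the normoxia range. The difference was 0.35 (SE 0.12, 95% interval 0.09 to 0.62, limma adjusted p = 0.0742), and 0.22 and 0.26 at the other probe sets, none of which passed. Bgn passed without normoxia array 1 (adjusted p = 0.0323) or hypoxia array 5 (0.0442), and the probe set at 0.22 passed without hypoxia array 5 (0.0331). Of all probe sets 15.6% passed without normoxia array 1 and 12.9% without hypoxia array 5. The difference was 0.21 with quantile normalization, with an adjusted p of 0.0879.

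**Figure D1:**
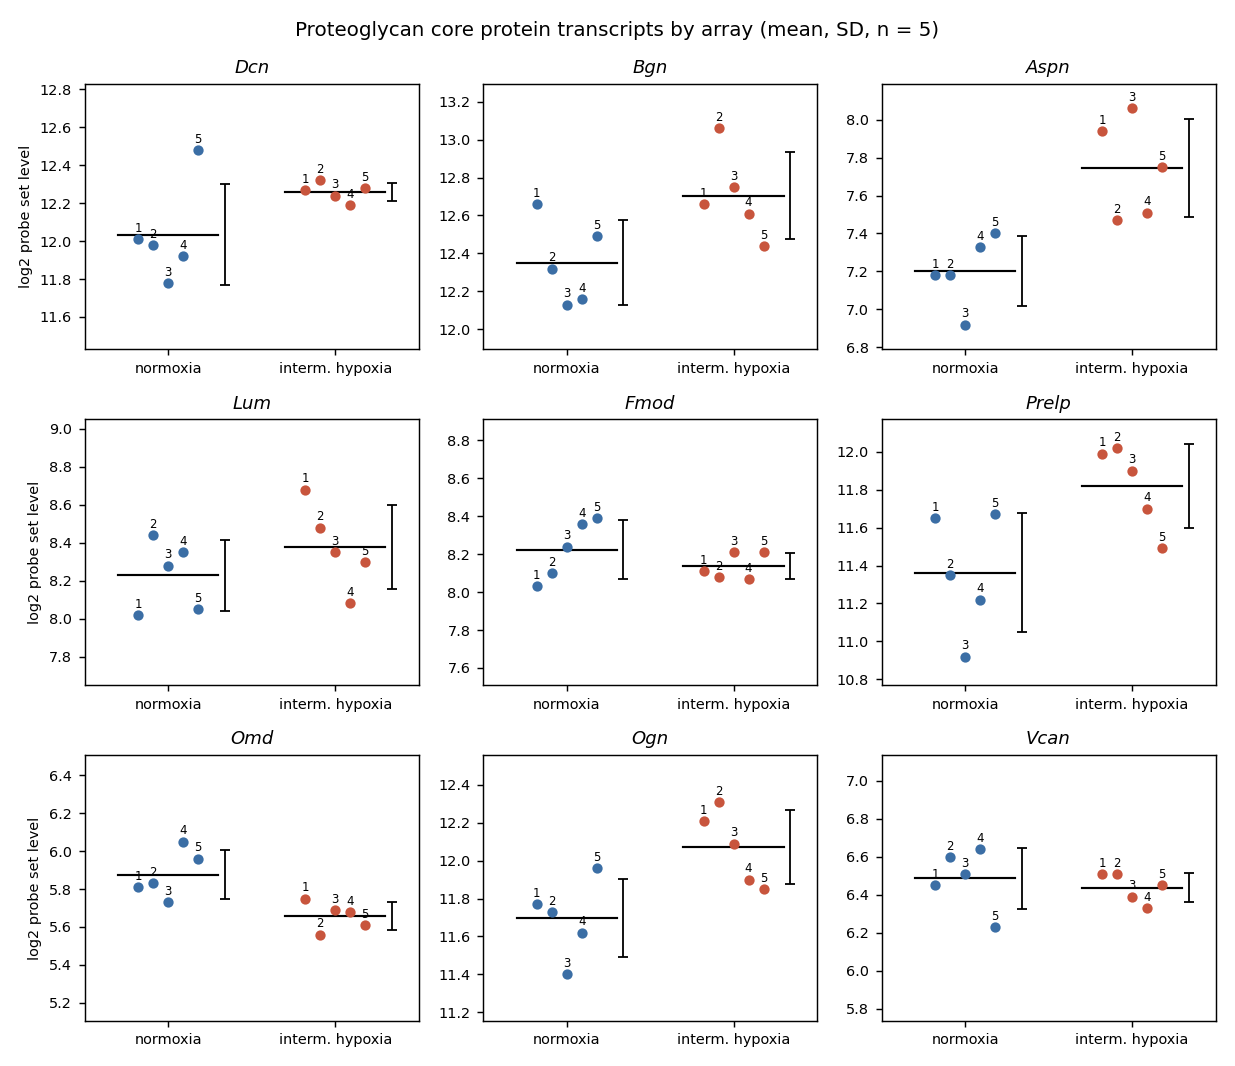
Log2 probe set level (y axis) of each gene on the 5 normoxia and 5 intermittent hypoxia arrays, numbered as in the labels, with the group mean as a line and the SD as a bar beside it. Each panel spans the same height on the log2 scale and shows the brightest probe set of its gene. Aspn is the one gene whose groups do not overlap there, and normoxia array 5 stands above the hypoxia arrays for Dcn.

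In the second class are lumican, fibromodulin, PRELP and osteomodulin, several of which carry keratan sulfate. PRELP, a heparin-binding protein that links basement membranes to connective tissue, gave different calls at its 2 probe sets. At the brighter one, 1416321_s_at, the normoxia levels were 11.65, 11.35, 10.92, 11.22 and 11.67 on arrays 1 to 5. The hypoxia levels there were 11.99, 12.02, 11.90, 11.70 and 11.49. Hypoxia array 5 lay below normoxia arrays 1 and 5, and the difference of 0.46 (SE 0.14, 95% interval 0.14 to 0.77) had a limma adjusted p of 0.0562.

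At the dimmer probe set of Prelp, 1416322_at, the normoxia levels were 9.32, 8.72, 8.92, 9.15 and 9.20 and the hypoxia levels 10.04, 9.59, 10.06, 9.82 and 9.49. Every hypoxia array was above every normoxia array. The rise was 0.74 (SE 0.13, 1.67-fold, limma adjusted p = 0.00830), the largest of the 21 probe sets, and it passed without each single array (adjusted p up to 0.0273), with SAM (0.0274) and with quantile normalization (0.0104). The brighter probe set passed without normoxia array 1 (0.0342), normoxia array 5 (0.0237) or hypoxia array 5 (0.0306). Under these omissions 15.6%, 21.2% and 12.9% of all probe sets on the array passed. The mean of both probe sets rose by 0.60 (adjusted p = 0.0117).

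Lumican, which binds collagen and is best known for keeping the cornea clear, had normoxia levels of 8.02, 8.44, 8.28, 8.35 and 8.05 and hypoxia levels of 8.68, 8.48, 8.35, 8.08 and 8.30. The groups overlapped over most of their range, and the difference of 0.15 (SE 0.11, 95% interval -0.09 to 0.40, limma adjusted p = 0.381) did not pass. Lum is measured by 1 probe set. Its interval leaves room for a rise of the size measured for Ogn.

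Fibromodulin, another regulator of collagen fibril assembly, had normoxia levels of 8.03, 8.10, 8.24, 8.36 and 8.39 and hypoxia levels of 8.11, 8.08, 8.21, 8.07 and 8.21 at its brightest probe set. The hypoxia arrays lay inside the normoxia range, with a difference of -0.09 (SE 0.08, 95% interval -0.26 to 0.08, limma adjusted p = 0.459). Of the 6 probe sets of Fmod 4 had a positive difference, the largest being 0.25, none passed, and their mean differed by 0.05, so no direction can be given for this gene. Osteomodulin, a proteoglycan known mainly from bone, had normoxia levels of 5.81, 5.83, 5.73, 6.05 and 5.96 and hypoxia levels of 5.75, 5.56, 5.69, 5.68 and 5.61. The ranges met at a single pair of arrays, hypoxia array 1 and normoxia array 3. The difference of -0.22 (SE 0.07, 95% interval -0.37 to -0.06) did not pass (limma adjusted p = 0.0669), and Omd lay in the dim part of the arrays, above 17.1% of the probe sets. Array weights gave Omd an adjusted p of 0.0461, and 18.3% of all probe sets passed with them.

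Osteoglycin, or mimecan, is the member of the third class. At the brighter of its probe sets, 1419663_at, the normoxia levels of Ogn were 11.77, 11.73, 11.40, 11.62 and 11.96 on arrays 1 to 5. The hypoxia levels were 12.21, 12.31, 12.09, 11.90 and 11.85. Hypoxia arrays 4 and 5 lay below normoxia array 5, and the other hypoxia arrays above all normoxia arrays. The mean rose from 11.69 ± 0.21 to 12.07 ± 0.20 (SD, n = 5), by 0.38 (SE 0.11, 95% interval 0.14 to 0.62, limma adjusted p = 0.0443, exact two-sided permutation p = 0.0238).

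The call of Ogn was lost without normoxia array 2 (adjusted p = 0.0793), 3 (0.108) or 4 (0.107), without hypoxia array 1 (0.0999), 2 (0.102) or 3 (0.0882), with SAM (0.0996) and with quantile normalization (0.0664, at a difference of 0.22). The other probe set of Ogn, 1419662_at, had normoxia levels of 11.40, 10.83, 10.64, 11.46 and 11.91 and hypoxia levels of 12.12, 11.85, 11.83, 11.81 and 11.76. Every hypoxia level exceeded those of normoxia arrays 1 to 4, and hypoxia array 1 alone exceeded normoxia array 5. Its difference was larger, 0.63 (SE 0.19), but the limma adjusted p was 0.0513. Without normoxia array 5 this probe set passed (0.00779), as did 21.2% of all probe sets.

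Versican, the large chondroitin sulfate proteoglycan, was dim at all 3 of its probe sets. At the brightest its normoxia levels were 6.45, 6.60, 6.51, 6.64 and 6.23 and its hypoxia levels 6.51, 6.51, 6.39, 6.33 and 6.45. The hypoxia arrays lay within the normoxia range, and the difference was -0.05 (SE 0.08, 95% interval -0.23 to 0.12, limma adjusted p = 0.686). The other probe sets of Vcan gave -0.22 (adjusted p = 0.0547) and -0.10 (0.341). The first of these, 1421694_a_at, passed as lower with eBayes trend and robust options (0.0479) and with array weights (0.0402). It also passed without normoxia array 5 (0.0378) or hypoxia array 5 (0.0293). Under these settings, in the same order, 12.2%, 18.3%, 21.2% and 12.9% of all probe sets passed.

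**Figure D2:**
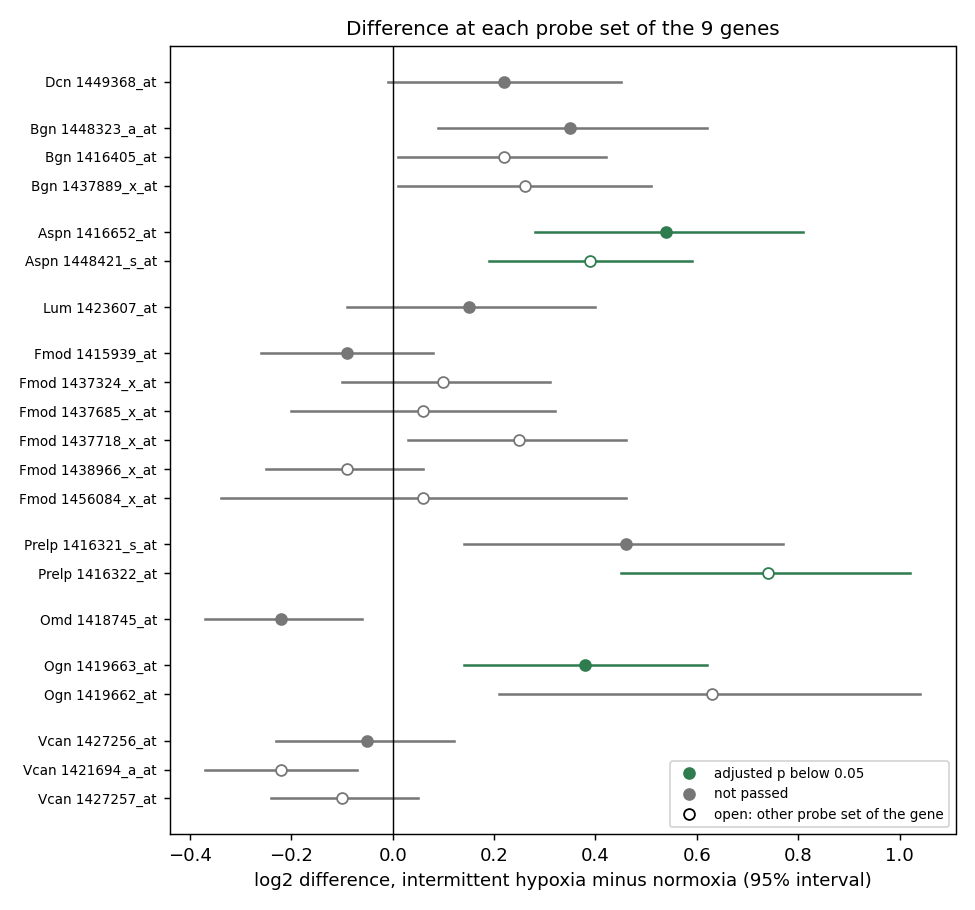
Log2 difference between intermittent hypoxia and normoxia (x axis) with its 95% interval at each of the 21 probe sets of the 9 genes (y axis). Green marks an adjusted p below 0.05, filled points the probe set with the highest mean and open points the others; the passing probe sets belong to Aspn (0.54 and 0.39), Prelp (0.74) and Ogn (0.38), and those of Fmod lie on both sides of 0.

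Some of these differences moved with a property of whole arrays. Normoxia arrays 2, 3 and 4 had the narrowest spread of levels, with standard deviations over all probe sets of 1.89 to 1.93, where the remaining arrays had 1.99 to 2.05. On these 3 arrays Dcn, Bgn, Prelp and Ogn each lay below their mean over the 10 arrays. After subtraction of the group means, the level of Prelp correlated with the array's standard deviation at r = 0.93, Bgn at 0.86, Ogn at 0.83 and Dcn at 0.74 (10 arrays, a description). The part of the arrays' spread in these differences was tested only through the settings that follow. The values were 0.32 for Aspn, 0.12 for Omd, -0.13 for Fmod, -0.37 for Lum and -0.58 for Vcan.

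Quantile normalization, which gives every array the same spread, left Aspn at 0.56 (limma adjusted p = 0.0177) and moved Prelp to 0.30, Ogn to 0.22, Bgn to 0.21 and Dcn to 0.06. It also moved the share of higher ones among the changed probe sets from 71.2% to 59.1%. Without normoxia arrays 2 to 4 together none of the 9 genes passed, with 2 normoxia arrays left. The differences were then 0.45 for Aspn (adjusted p = 0.334), 0.21 for Ogn, 0.16 for Prelp, 0.13 for Bgn, 0.02 for Dcn and 0.54 for the dimmer Prelp probe set (0.237). With these arrays left out 0.0707% of all probe sets passed.

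**Figure D3:**
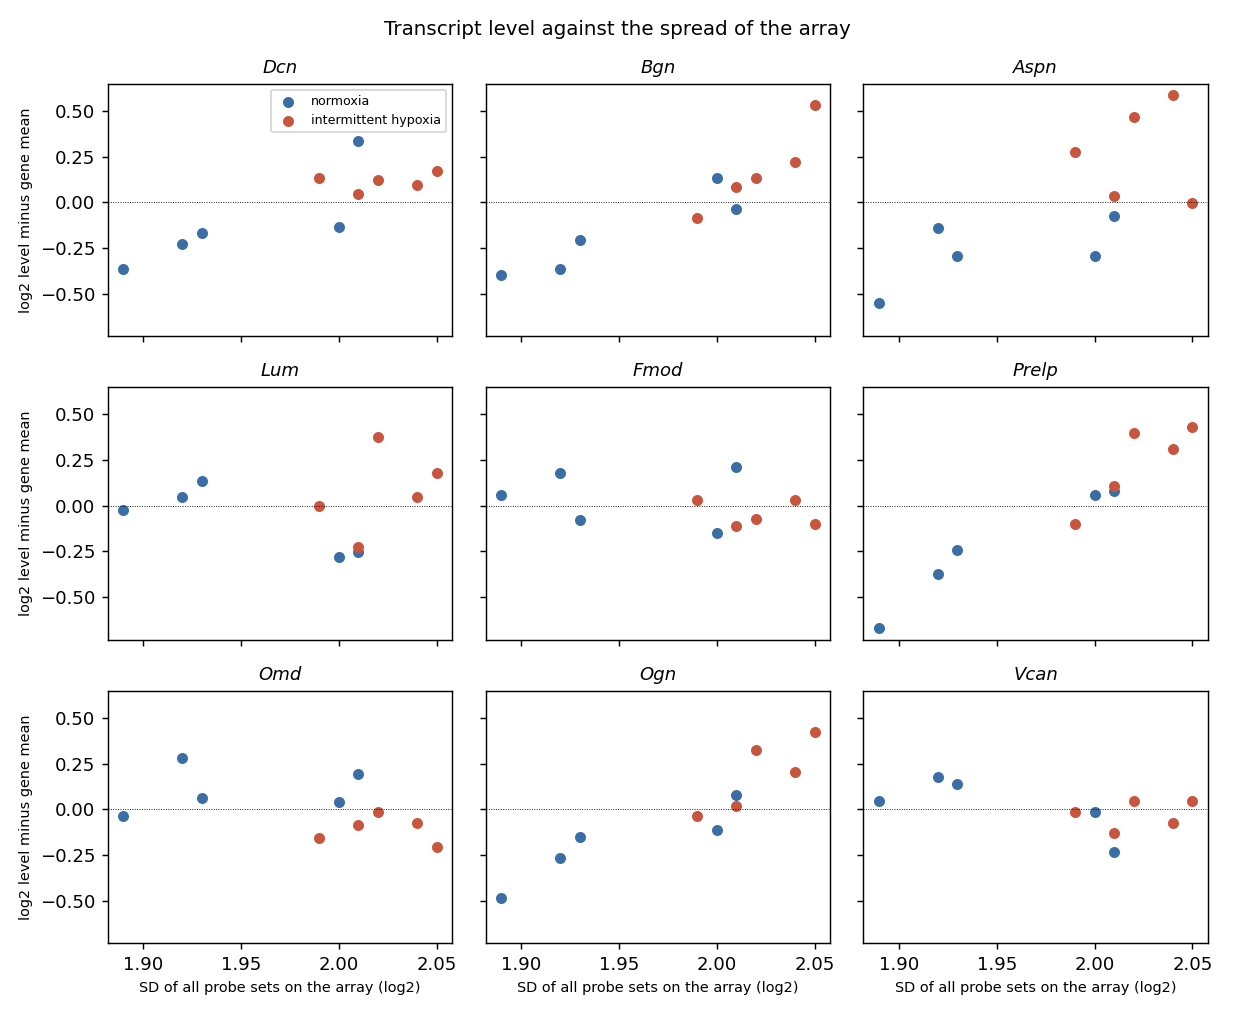
Log2 level of each gene minus its mean over the 10 arrays (y axis) against the standard deviation of all probe sets on that array (x axis, log2 units), with normoxia in blue and intermittent hypoxia in red. Prelp, Bgn and Ogn climb along the axis in both groups. Only normoxia arrays 1 and 5 are near the hypoxia arrays in spread. On these Aspn read 7.18 and 7.40, beside 7.47 on the lowest hypoxia array, and without the other normoxia arrays Aspn did not pass (limma adjusted p = 0.334).

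**Figure D4:**
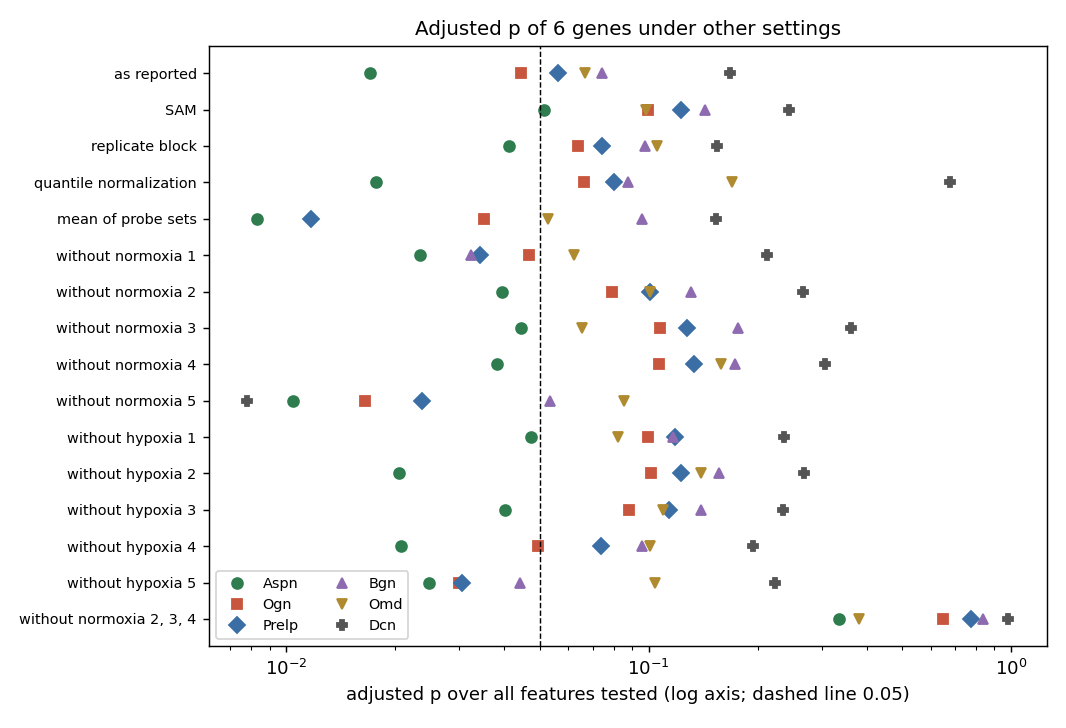
Adjusted p (x axis, log scale, dashed line at 0.05) of 6 of the genes under the settings on the y axis, which include each array left out in turn. Aspn lies left of the line under every setting drawn except SAM (0.0515) and the omission of normoxia arrays 2 to 4 (0.334). Dcn crosses it without normoxia array 5 (0.00780), where 21.2% of all probe sets passed.

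Within the groups, PRELP and osteoglycin varied together most closely, with r = 0.94 between their deviations over the 10 arrays and 0.78 after quantile normalization. Bgn correlated with Prelp at 0.86 and with Ogn at 0.80, and these values dropped to 0.55 and 0.33 after quantile normalization. Lum and Vcan gave 0.76 under both scalings, and Aspn and Omd 0.69 and 0.77. These correlations share the arrays and their spread and carry no test. Among 12392 other genes, those most like Prelp over the 10 arrays were Gpx1 (r = 1.00), Pex2 and Ets2 (both 0.99). The genes nearest to Ogn were Pdha1 (0.98), Mfge8 and Brox (both 0.97), and those nearest to Bgn were Vamp8, Chmp5 (both 0.99) and Atp6v1e1 (0.98). Dcn was nearest to Fech (0.99), Marchf2 (0.97) and Hnrnpul1 (0.96). For Aspn the nearest were Zfp82 (0.91), Trappc6a (0.90) and Sertad3 (0.88), and for Omd Abcd2 (0.92), Zfp53 and Mllt1 (both 0.88). Lum was nearest to BC053393 (0.96), Nnmt (0.94) and Tnfrsf14 (0.92), Fmod to Stk39, Elovl6 (both 0.91) and Insm2 (0.90), and Vcan to Gpc6 (0.99), Zfp51 (0.97) and Olfr74 (0.96). None of these neighbours is one of the 9 genes. After quantile normalization 10 of these 27 were again among the nearest 3, which were all 3 for Vcan, BC053393 and Nnmt for Lum, and Fech, Vamp8, Zfp82, Pex2 and Abcd2 for Dcn, Bgn, Aspn, Prelp and Omd. None was for Ogn, where Pla2g2e, Ndufa6 and Aurkc took their place, or for Fmod.

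Genes whose products work with these proteoglycans were counted on lists chosen by their roles. Each count here and below stands beside 8.93% of all genes that were higher and 3.6% that were lower. Collagens that small leucine-rich proteoglycans bind or organise rose in 7 of 13 cases and fell in none, with a median of 0.37. The passing genes with the smallest p were Col6a3 at 0.67, Col1a1 at 0.80, Col14a1 at 0.60 and Col6a2 at 0.42. Other probe sets of Col1a1 and Col14a1 both gave 0.22 and did not pass, and that of Col6a2 gave 0.45 and passed. Of 8 fibre genes whose products bind versican or share its microfibrils 2 rose, Mfap5 by 0.85 and Fbln5, which encodes an elastin-binding fibulin, by 0.67. The other probe set of Mfap5 rose by 0.33 (limma adjusted p = 0.0463). The other small leucine-rich proteoglycans measured, Epyc, Chad, Kera and Optc, are known mainly from cartilage and eye. None of these 4 passed and all had negative differences. The smallest p was that of Epyc at -0.15 (limma adjusted p = 0.154). Epyc passed as lower without normoxia array 5 (0.0439), where 21.2% of all probe sets passed.

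Relative to the fibrillar collagen transcripts of the same array, a comparison chosen after the data were seen, the proteoglycan genes had negative differences, as had nearly all genes. The mean log2 level of Col1a1, Col1a2 and Col3a1 was 0.68 higher in intermittent hypoxia, and the log2 ratio of a gene to that mean had a negative difference in 99.3% of 12390 other genes, with a median of -0.66. Fmod (-0.76) and Omd (-0.89), 2 of the 9, were lower on every hypoxia array than on any normoxia array, beside 77.7% of all genes. The direction is set by the choice of collagens that were themselves higher, so no test is given. The ratio differed by -0.45 for Dcn, -0.32 for Bgn, -0.30 for Ogn, -0.22 for Prelp and -0.13 for Aspn, and by -0.52 for Lum and -0.73 for Vcan. With probe sets averaged per gene the values nearest 0 were those of Prelp (-0.03), Ogn (-0.12) and Aspn (-0.16), so the order of these genes depends on the probe set. With quantile normalization Aspn differed by 0.03 and Prelp by -0.23.

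The chains that decorate these core proteins are made by enzymes of chondroitin, dermatan and keratan sulfate synthesis. Of 21 measured 2 rose, near the 8.93% of all genes that were higher, none fell and the median was -0.02. Papss1, which makes the sulfate donor, rose by 0.39 (SE 0.09, limma adjusted p = 0.0191), and Chst14, the dermatan 4-O-sulfotransferase, by 0.27 (SE 0.08, 0.0411). Papss2, which makes the same donor, differed by -0.27 (limma adjusted p = 0.0904) and did not pass. Its other probe sets also had negative differences. The call of Chst14 stood when normoxia array 1 or 5 or hypoxia array 4 was left out, and was lost for each of the other 7 (adjusted p up to 0.104), and Papss1 lost it without normoxia array 4 (0.0574). The call of Chst14, but not that of Papss1, was also lost with SAM and with quantile normalization. With quantile normalization 3 genes of this list were lower.

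Among 21 genes of the lecticans, the link proteins and hyaluronan, versican's partner, 1 rose and 2 fell. Of all genes 8.93% were higher and 3.6% lower. Lyve1, the hyaluronan receptor of lymphatic and some other endothelial cells and of macrophages, had levels of 12.76, 12.77, 12.63, 12.71 and 12.60 in normoxia and 11.92, 12.52, 11.94, 12.33 and 11.96 in intermittent hypoxia. Every hypoxia array lay below every normoxia array, and the level fell by 0.56 (log2, SE 0.11, limma adjusted p = 0.0119), though its other probe set differed by -0.19 and the mean of both did not pass. Cd44, the widespread hyaluronan receptor, rose by 0.45 (SE 0.11, adjusted p = 0.0240) and Itih5, a hyaluronan-associated serum protein, fell by 0.51 (SE 0.15, adjusted p = 0.0455). Omission of any of 6 arrays ended the call of Cd44, as did SAM, and omission of any of 7 that of Itih5, as did SAM and quantile normalization. The other, dimmer probe set of Cd44 rose by 0.72 (limma adjusted p = 0.0285). The hyaluronan synthase Has2 differed by -0.20 and the link protein gene Hapln1, next to Vcan on chromosome 13, by -0.07, neither past the test.

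Of 18 genes that cleave proteoglycans or process collagen 5 rose and 1 fell. Adamts1, a versican-cleaving protease, reached at most 9.73 in normoxia and had hypoxia levels of 10.09, 10.36, 10.36, 9.80 and 10.14. Adamts15, of the same family, had 9.35, 9.69, 9.63, 9.42 and 9.78 in normoxia and 8.70, 8.33, 8.09, 8.72 and 8.78 in intermittent hypoxia. The groups of both genes were apart, in opposite directions, with differences of 0.79 (SE 0.14) and -1.05 (SE 0.13). Adamts4 and Adamts5, which also cut versican, differed by -0.13 and -0.22 and did not pass. Pcolce2 and Pcolce, enhancers of procollagen cleavage, rose by 0.76 and 0.48. Of 21 receptors and ligands tied to these proteoglycans 2 rose and 1 fell, near the shares of all genes (8.93% higher, 3.6% lower). Tgfb3 and Tgfb2, which encode forms of TGF-beta, rose by 0.40 and 0.35, and Selp, the selectin that binds versican's chains, fell by 0.39. The other probe sets of Tgfb2 rose by 0.84 and 0.55. Omission of any of 6 arrays ended the call of Selp (adjusted p up to 0.0857), as did SAM (0.0789). The other, dimmer probe set of Selp fell by 0.24 (limma adjusted p = 0.0468). The biglycan receptors Tlr2 and Tlr4 differed by 0.41 (limma adjusted p = 0.0523) and 0.05.

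**Figure D5:**
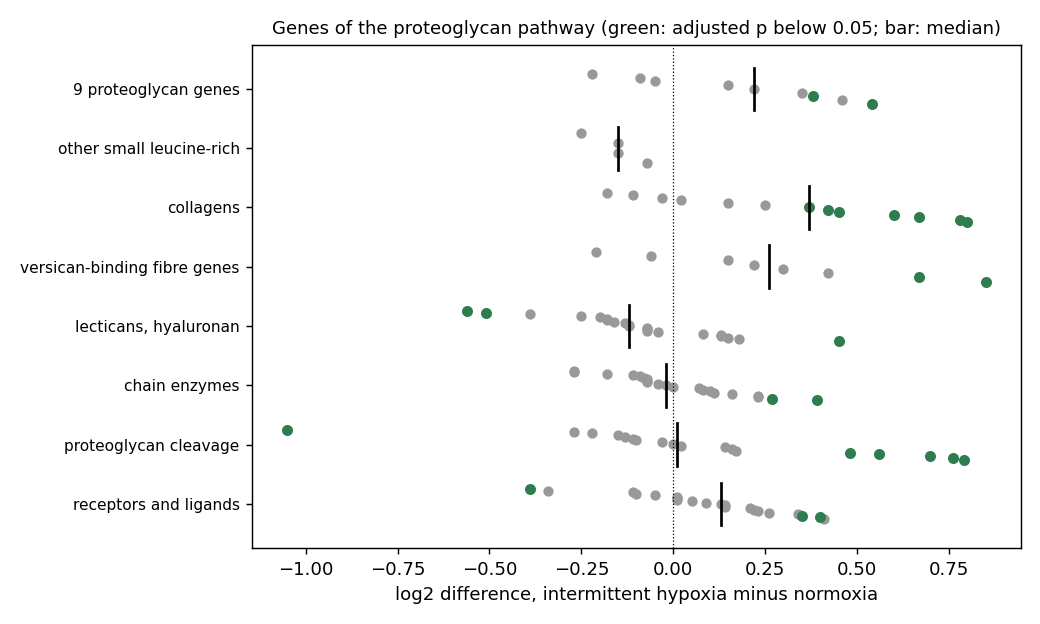
Log2 difference between intermittent hypoxia and normoxia (x axis) of each measured gene of 8 lists (y axis), 1 probe set per gene, with green for an adjusted p below 0.05 and a bar at the list's median. The 9 proteoglycan genes have a median of 0.22 with 2 green points, and the 13 collagens a median of 0.37 with 7.

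In whole lung, fewer cells of a type and less RNA per cell cannot be told apart. The lung's defining epithelial markers were bright, with group means in normoxia and intermittent hypoxia of 14.60 and 14.59 for Sftpc, 14.59 and 14.58 for Scgb1a1 and 12.90 and 13.09 for Ager. Sftpc and Scgb1a1 lie so near the top of the scale that they show the tissue and no stability. Counts of markers stand beside 8.93% of all genes that were higher and 3.6% that were lower. Of 5 type 1, 6 type 2 and 5 club and ciliated cell markers 1 each rose, Aqp5 by 0.53, Etv5 by 0.63 and Tppp3 by 0.33. None was called lower. Differences were above 0 for 4 of the type 1, 5 of the type 2 and 1 of the club and ciliated markers. Their medians were 0.18, 0.05 and -0.05, and the lowest were Pdpn (-0.13), Sftpc (-0.01) and Foxj1 (-0.25). Of 14 fibroblast markers 5 rose and none fell, with a summed linear level of 35005 to 44618 on the normoxia arrays and 40492 to 50794 on the hypoxia arrays. The alveolar fibroblast marker Col13a1 rose by 0.75 (limma adjusted p = 0.00647), while Pdgfra and Tcf21 differed by -0.14 and -0.06 and did not pass. Mfap5 and Col14a1 are on this list as well as on the matrix lists above. Of 8 mesothelial markers 2 rose, with sums of 3734 to 5033 and 4987 to 5895, and of 14 smooth muscle and pericyte markers none rose and 1 fell, with sums of 17376 to 21312 and 17874 to 23353. Of 15 cartilage markers, a tissue of the larger airways, 1 rose, with sums of 1995 to 2274 and 1924 to 2122. Of 9 adipocyte markers none rose and 2 fell, with sums of 7801 to 14305 and 4204 to 8179, and of 5 B cell markers 3 rose, with sums of 1755 to 3026 and 2863 to 5433. Of 6 macrophage markers 2 rose, Cd68 by 0.74 and Mrc1 by 0.41, with sums of 2873 to 3456 and 2478 to 6336. Of 5 T cell markers 2 rose, Cd3g by 0.51 and Cd3d by 0.49. Of 9 endothelial markers 1 rose, Emcn by 1.03, and no marker of these lists was called lower. Differences were above 0 for 5 of the macrophage, 3 of the T cell and 6 of the endothelial markers. Their medians were 0.30, 0.06 and 0.15. The lowest were Adgre1 (-0.21), Cd4 (-0.22) and Vwf (-0.35), which did not pass. Of 11 cardiac muscle markers none passed. An array level has no true 0, so absence of a marker cannot be read from it. The part of these cell types in the differences of the 9 genes was not tested.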

How the data were processed

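Total RNA of whole lung was labelled with biotin and hybridised to Affymetrix Mouse Genome 430A 2.0 arrays, 1 per animal, per the labels. The deposited values are log2 probe set levels, made with RMA in affy per the submitters' processing notes, which give no version. Whether all 10 arrays were normalized together is not given in the sources used here. Array medians lay between 7.69 and 7.73 and correlations of array pairs between 0.982 and 0.996. Precision is limited by the number of arrays.

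Symbols came from the platform annotation, which gave 1 to 20380 probe sets, several to 691 and none to 1555. All 22626 probe sets were compared with limma 3.58.1 (lmFit, eBayes; R 4.3.3) by a two-sided test, unfiltered, and p-values were adjusted by Benjamini-Hochberg across the whole table, with a threshold of 0.05. Standard errors and 95% intervals are limma's. Single genes were also tested by an exact permutation test over 252 splits.

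The genes, lists and tests were chosen with earlier results of these data known. The text names the 9 genes and all their probe sets, of each list up to 4 passing genes with the smallest p, or the first where none passed, and the 3 genes most like each member by Pearson correlation of deviations from group means. Kera, Optc, Chad, Has2, Hapln1, Adamts4, Adamts5, Papss2, Tlr2, Tlr4 and some passing markers were named outside this rule, after their values were seen. So were the markers Adgre1, Cd4, Vwf, Pdpn and Foxj1, which did not pass. Other markers that passed are not named. A plan to name the first 3 measured genes of each marker list was carried out only for fibroblasts. SAM used 100 permutations, pooled over all probe sets into p-values that were adjusted by Benjamini-Hochberg. Its adjusted p is therefore not the q-value of the published method. The alternatives were SAM, a replicate block, quantile normalization, median centring, a filter on dim probe sets, other eBayes options, array weights, gene means, another threshold and the omission of arrays; the omission of normoxia arrays 2 to 4 together was among them. Python 3.11.15 with matplotlib 3.10.9 drew the figures and searched the promoters.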

Additional observations from a re-analysis of the deposited data

Results flagged for a closer look

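One value stood apart from its group. At the dimmer Ogn probe set, 1419662_at, hypoxia array 1 read 12.12, while the other hypoxia arrays lay between 11.76 and 11.85, a gap of 0.76 of the group's range. In the 80 groups examined this was the 1 case above Dixon's critical value of 0.71, and chance marks about 1 group in 20.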

How the results depend on the processing

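The changed probe sets numbered 2699 (1923 higher, 776 lower) as reported. There were 1168 with SAM (855 and 313), 1755 with the replicate block (1274 and 481), 4132 with array weights (2721 and 1411), 4954 at an adjusted p below 0.10 (3184 and 1770), 1605 of 12393 with probe sets averaged per gene (1140 and 465) and 16 without normoxia arrays 2 to 4 (7 and 9). With probe sets below the median level left out, 492 were lower. Leaving out 1 array gave 1003 to 4800 changed, 748 to 3094 higher and 255 to 1706 lower.

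Of the 9 genes 2 were higher. The count was 0 with SAM, 1 with the replicate block (Aspn), 1 with quantile normalization (Aspn), 4 at an adjusted p below 0.10, 0 without normoxia arrays 2 to 4 and 1 to 4 with 1 array left out. With probe sets below the median level left out Prelp and Ogn passed, and Aspn, Omd and Vcan were not tested. Under that filter 21.5% of the 11313 probe sets tested passed. Averaged per gene Aspn, Prelp and Ogn passed. Lower were 0, and 1 with array weights and at an adjusted p below 0.10 (Omd in both cases). Of the other pathway genes 19 were higher and 4 lower. At an adjusted p below 0.10 these were 29 and 7, with SAM 15 and 2, with quantile normalization 17 and 8, without normoxia arrays 2 to 4 both 0, and with 1 array left out 14 to 23 and 2 to 7.

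By exact two-sided permutation p was 0.0873 for Dcn (0.00794 to 0.175 with 1 array left out), 0.0476 for Bgn (0.0238 to 0.0952), 0.0318 for Prelp (0.0318 to 0.0635), 0.0159 for Omd (0.00794 to 0.0318, and 0.0714 with quantile normalization), 0.00794 for Aspn (0.00794 to 0.0238) and 0.0238 for Ogn (0.0159 to 0.0476). The replicate block also ended the calls of Ogn (0.0640), Chst14 (0.0576) and Itih5 (0.0664). Replicate numbers did not pair the arrays: deviations of same-numbered arrays correlated at 0.06, 0.22, -0.12, 0.15 and -0.24, and 1 of 5 normoxia arrays correlated best with its own number. No called result reversed under any alternative run, while the sign of Fmod, not called, turned with probe sets averaged per gene (0.05) and that of Vcan without normoxia arrays 2 to 4 (0.09). The cause of these shifts was not tested.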
